A study of Solanum lycopersicum with 12 samples.

Results

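The genes described are 6 condensing enzymes of fatty acid elongation in tomato leaves attacked by the leafminer *Tuta absoluta*. They were chosen by identifier among the 34075 genes counted: *Solyc08g067260*, *Solyc10g009240*, *Solyc05g009270*, *Solyc03g005320* and *Solyc09g065780*, which the study annotates as 3-ketoacyl-CoA synthases, and *Solyc02g085870* (*CER6*). The samples were leaves of Better Bush, a dwarf hybrid cultivar grown on circulating nutrient solution in a growth chamber. Infested plants carried 6 larvae on the terminal leaflets of 1 true leaf, control plants received a mock deposition, and leaflets were collected after 5 h or 24 h, from which the larvae had been removed. The 4 groups (control 5 h, infested 5 h, control 24 h and infested 24 h) had 3 RNA-seq libraries each, from 6 plants per treatment. No source used here gives how plants were assigned to libraries, so p-values measure the spread between these libraries.

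Very-long-chain fatty acids are built on the endoplasmic reticulum by an elongase complex, which lengthens an acyl-CoA chain in repeated cycles of condensation, reduction, dehydration and a final reduction. The 3-ketoacyl-CoA synthase performs the condensation and sets which chain lengths are made. In the leaf epidermis the products feed the cuticular waxes, and *CER6* encodes the main wax elongase of tomato. The individual substrates of the other 5 enzymes are not assigned here.

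After 5 h of herbivory all 6 genes had lower levels in infested than in control leaves, from 17.8% of the control level for *Solyc05g009270* to 69.4% for *CER6*. After 24 h all 6 fitted changes were again below 0, and *Solyc08g067260* and *Solyc05g009270* passed the test, at 53.8% and 14.8% of the control level. *Solyc05g009270* was in the test only through its control libraries. Between the harvests the family split: *Solyc08g067260* and *Solyc10g009240* were higher at 24 h in both control and infested leaves, *Solyc09g065780* was lower in both, and *CER6* stayed within 1.55-fold over the 4 group means. The 6 genes are all on the study's list of genes reduced at 5 h, so the infested and control libraries of 5 h chose them. The values of 5 h are therefore a description. For its calls the study states an absolute log fold change above 1.5 and an adjusted p below 0.05 in edgeR. The test used here is another one of edgeR and sets no limit on size, so its calls are not those of the study. The 5 h log2FC here was smaller in size than 1.5 for *Solyc10g009240* (-1.23), *Solyc03g005320* (-1.10), *Solyc09g065780* (-1.12) and *CER6* (-0.53). The edgeR likelihood ratio test gave nearly the same sizes, so the choice of test does not explain their place on that list. How the study applied its limit was not tested. The 24 h contrast shares no library with the 5 h contrast. Both take the spread of each gene from 1 fit of all 12 libraries, so the 24 h p-values also draw on the 5 h libraries.

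Levels are given in CPM, the usual unit for counts scaled by the library total, here corrected by the TMM factor of each library. They were not divided by gene length, so they are compared between groups for a gene and not between genes. Totals ranged from 19655669 to 28209033 counts per library, and a count of 3 corresponded to 0.0960 to 0.167 CPM, which covers counting error only. Of the 34075 genes, 18200 exceeded 1 CPM in at least 3 libraries and were tested, among them all 6 elongase genes. No pair of replicates matched within sampling noise (chi-square divided by its degrees of freedom, 11.2 to 159). A pair of feeding-response genes, for putrescine hydroxycinnamoyl transferase and arginase, summed to 1.03 to 9.16 CPM in the 6 control libraries and to 302 to 2237 CPM in the 6 infested libraries. Replicate 2 of infested 24 h stood apart: the transferase (*PHT*) was at 0.640 CPM there, against 61.6 and 46.0 CPM in replicates 1 and 3 and 0.466 CPM in replicate 2 of control 24 h, and the arginase (*ARG*) at 680 CPM, against 2099 and 2191 CPM. A polygalacturonase of ripe fruit had no count in any library, and Rubisco genes were abundant in all of them.

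*Solyc08g067260* had the widest range of group means, 8.88-fold. Its level was 28.8, 22.0 and 26.4 CPM in the control 5 h libraries, 5.61, 6.65 and 8.37 CPM in infested 5 h, 60.8, 34.4 and 88.2 CPM in control 24 h, and 33.3, 32.9 and 32.3 CPM in infested 24 h (replicates 1 to 3 in this order, as for the other genes). Infested libraries lay below controls at each harvest without overlap, narrowly so at 24 h, where the lowest control library stood just above the infested ones. The log2 fold change (log2FC, infested minus control) was -1.91 (SE 0.28) at 5 h and -0.89 (SE 0.26) at 24 h, where edgeR's quasi-likelihood test gave an adjusted p of 0.0281. The group means were 25.8 ± 3.44, 6.88 ± 1.39, 61.1 ± 26.9 and 32.9 ± 0.504 CPM (SD, n = 3).

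*Solyc10g009240* followed the same order of groups at a lower count. Its level was 2.69, 3.18 and 4.45 CPM in control 5 h, 0.892, 1.80 and 1.73 CPM in infested 5 h, 7.63, 9.12 and 9.24 CPM in control 24 h, and 4.43, 5.70 and 5.86 CPM in infested 24 h. Infested and control libraries did not overlap at either harvest, while the infested 24 h libraries reached down to the top of the control 5 h range. The log2FC was -1.23 (SE 0.29) at 5 h. At 24 h it was -0.70 (SE 0.27) and missed the threshold (edgeR adjusted p = 0.0784).

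*Solyc05g009270* had the lowest counts, between 4 and 133 per library. Its level was 4.32, 2.45 and 2.69 CPM in control 5 h, 0.409, 0.160 and 1.17 CPM in infested 5 h, 1.52, 0.970 and 5.94 CPM in control 24 h, and 0.338, 0.352 and 0.540 CPM in infested 24 h. All 6 controls lay above the infested libraries of their own harvest, and replicate 3 of control 24 h stood far above the other controls of that time. Of the 12 libraries 7 exceeded 1 CPM, 6 controls and 1 infested, so the gene entered the test through its controls. The log2FC was -2.49 (SE 0.74) at 5 h and -2.76 (SE 0.75) at 24 h (edgeR adjusted p = 0.0200), with an interval of 4.78% to 45.9% of the control level at 24 h.

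*Solyc03g005320* shared that high library. Its level was 12.2, 8.45 and 8.49 CPM in control 5 h, 4.27, 5.45 and 3.85 CPM in infested 5 h, 10.2, 9.89 and 29.9 CPM in control 24 h, and 8.51, 4.80 and 9.68 CPM in infested 24 h. At 24 h the highest infested library came just below the lowest control library, and replicate 3 of control 24 h again stood far above the other controls of its time. The log2FC was -1.10 (SE 0.41) at 5 h and -1.12 (SE 0.40) at 24 h, with an edgeR adjusted p of 0.0608 at 24 h. Without replicate 3 of control 24 h the 24 h value was -0.40.

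*Solyc09g065780* was the member whose level fell between harvests. It stood at 8.63, 8.29 and 12.1 CPM in control 5 h, 4.42, 3.97 and 4.97 CPM in infested 5 h, 1.98, 1.32 and 2.95 CPM in control 24 h, and 2.78, 0.768 and 1.22 CPM in infested 24 h. The 5 h groups were separated, but at 24 h infested and control libraries overlapped over most of their range. The log2FC was -1.12 (SE 0.40) at 5 h. At 24 h it was -0.39 (SE 0.42, edgeR adjusted p = 0.544), with an interval of 40.4% to 144% of the control level.

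*CER6* varied least. Its level was 68.4, 62.2 and 62.1 CPM in control 5 h, 46.8, 43.2 and 43.7 CPM in infested 5 h, 63.0, 75.8 and 68.0 CPM in control 24 h, and 37.6, 56.3 and 61.8 CPM in infested 24 h. The infested 5 h libraries lay close together below all controls, whereas those of 24 h spread widely and the highest came within reach of the lowest control. The log2FC was -0.53 (SE 0.16) at 5 h and -0.41 (SE 0.16) at 24 h, with an edgeR adjusted p of 0.0757 at 24 h.

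**Figure D1:**
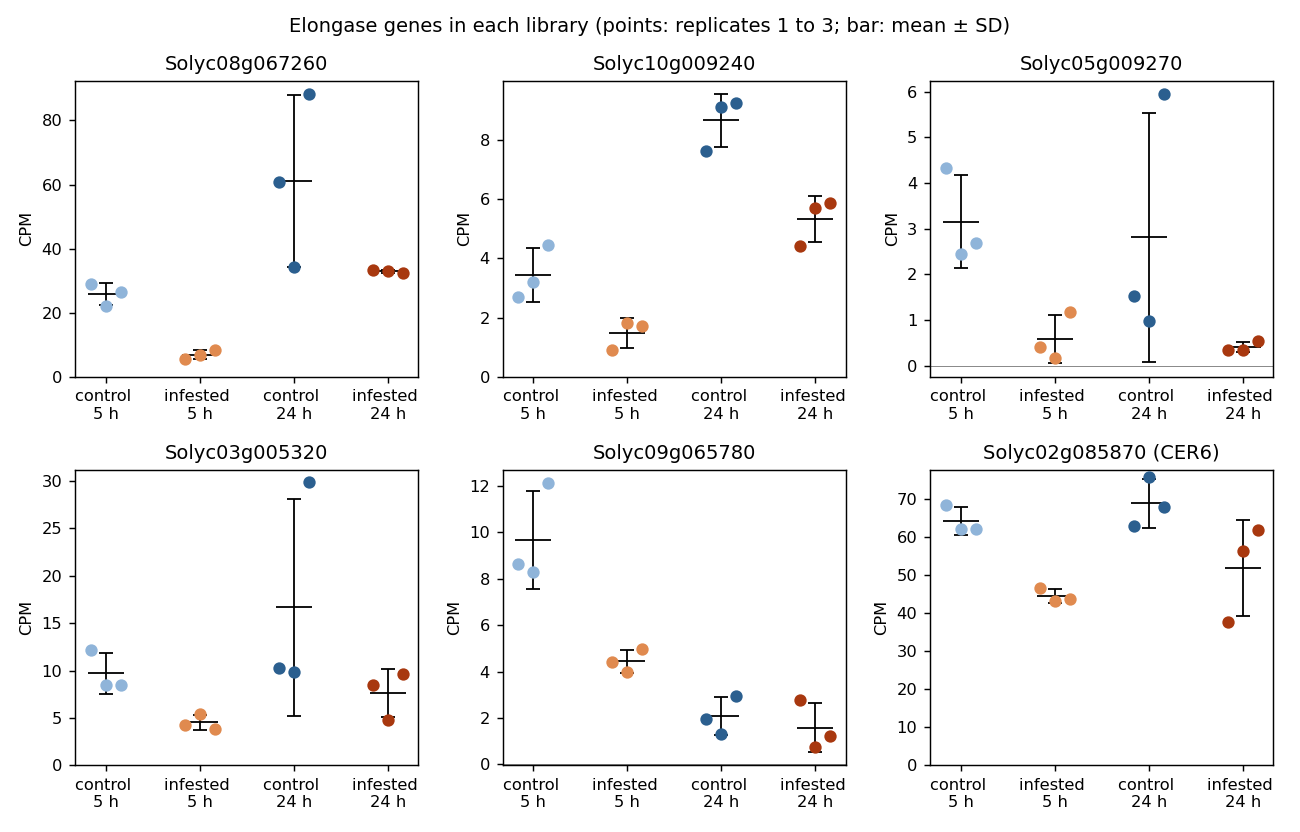
Level in CPM (linear axis) of each elongase gene in the 12 libraries, by group (control or infested, 5 h or 24 h). Points are replicates 1 to 3, and bars give the mean ± SD (n = 3). Infested libraries lay below controls in all panels at 5 h, and at 24 h in all but *Solyc09g065780*, where the groups overlapped. Replicate 3 of control 24 h stood at 88.2, 5.94 and 29.9 CPM for *Solyc08g067260*, *Solyc05g009270* and *Solyc03g005320*.

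The first comparison asks how herbivory of 5 h changed these genes. At an adjusted p below 0.05, 4 of the 6 were called lower (*Solyc08g067260*, *Solyc10g009240*, *Solyc05g009270* and *CER6*), where 5.59% of all tested genes were called lower. In either direction 12.5% of all tested genes were called. The other 2, *Solyc03g005320* and *Solyc09g065780*, had adjusted p of 0.111 and 0.0904 in edgeR. In all 6 genes the infested libraries lay below the controls without overlap, as did 18.3% of all tested genes. The median log2FC was -1.18 over the 6 genes and -0.03 over all tested genes. Nothing is read from these counts, since this contrast chose the genes. The call for *Solyc10g009240* was lost without replicate 3 of control 5 h, and those for *Solyc05g009270* and *CER6* were lost in 9 and 10 of the 12 fits that left out a library. In leaflets sampled with all their cell types together, fewer cells of a type and less RNA per cell cannot be told apart.

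The 24 h comparison asks whether the genes were still lower after a day of feeding. At an adjusted p below 0.05, *Solyc08g067260* and *Solyc05g009270* were called lower, 2 of 6 genes, where the share of all tested genes called lower was 12.5%. *Solyc05g009270* had passed the filter on low counts through its controls, so the count is not support for the family. With no filter on low counts its log2FC was -2.75 (edgeR adjusted p = 0.0176), from the same counts and so not further support. None was called higher, against 11.8% of all tested genes, and 24.3% were called in either direction. The log2FC was below 0 for all 6, with a median of -0.80 against 0.02 over all tested genes, and libraries did not overlap for 5 of 6, against 18.6% of all tested genes that were lower without overlap. *Solyc05g009270* had the lowest estimate and *Solyc09g065780* the estimate nearest to 0. The 2 calls depended on single libraries: without replicate 3 of control 24 h none of the 6 genes was called, and none without replicate 1 of infested 24 h. Of all tested genes 1520 and 1399 were called lower in these fits. Nor was any of the 6 called when only the 6 libraries of 24 h were fitted, without the spread of the 5 h libraries. In that fit 1127 of 17511 genes were called lower. The call for *Solyc08g067260* was also lost without replicate 1 of control 24 h and without replicate 2 or 3 of infested 24 h. Without replicate 2 of infested 24 h, the library with the low *PHT* level, 1 gene was called, *Solyc05g009270* at -2.65 (edgeR adjusted p = 0.0484), and the other log2FC were -0.89 for *Solyc08g067260* (0.0557), -0.74 for *Solyc10g009240*, -0.86 for *Solyc03g005320*, -0.045 for *Solyc09g065780* and -0.46 for *CER6*. Replicate 3 of control 24 h was the highest library of its group for 5 of the 6 genes, all except *CER6*. Without it *Solyc05g009270* stood at -1.60 (edgeR adjusted p = 0.113) and *Solyc08g067260* at -0.53 (0.130).

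Whether the response differed between the harvests was tested as the difference of the 2 log2FC, which includes the 5 h contrast that chose the genes. No elongase gene was called by edgeR's quasi-likelihood test, by its likelihood ratio test or by DESeq2, where 2.16% of all tested genes were called by the first. The unadjusted p was below 0.05 for 1 of the 6, *Solyc08g067260*, whose response was smaller at 24 h by 1.02 on the log2 scale (SE 0.38, edgeR adjusted p = 0.188). For *Solyc05g009270* the difference was -0.26 (SE 1.02), with an interval of -2.49 to 1.96, and for *CER6* it was 0.12 (SE 0.22), with an interval of -0.36 to 0.60. *CER6* had 784 to 1954 counts per library.

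The harvests were then compared within a treatment. The contrast of the 5 h libraries chose the genes. That choice favours high control and low infested levels at 5 h, so falls in controls and rises in infested leaves may be overstated. The 24 h libraries were not in that contrast, but earlier results of these data were known when the tests were chosen. In control leaves *Solyc08g067260* was higher at 24 h than at 5 h by 1.25 on the log2 scale (SE 0.27, edgeR adjusted p = 0.00412), or 2.37-fold. *Solyc10g009240* was higher by 1.33 (SE 0.28, adjusted p = 0.00352), or 2.51-fold. *Solyc09g065780* fell by 2.22 (SE 0.42, adjusted p = 0.00179), to 21.4% of its 5 h level. These 3 of 6 calls, 2 higher and 1 lower, compare with 27.7% of all tested genes called in either direction, 13.7% higher and 14% lower. The remaining 3 genes overlapped between the control groups, with log2FC of 0.78 for *Solyc03g005320*, 0.10 for *CER6* and -0.18 for *Solyc05g009270*.

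Infested leaves showed calls for the same 3 genes in the same directions. The genes were chosen as low in the infested 5 h libraries, so these values are a description. *Solyc08g067260* was higher at 24 h by 2.26 on the log2 scale (SE 0.28, edgeR adjusted p = 8.88e-05), a 4.80-fold difference, and *Solyc10g009240* by 1.86 (SE 0.29, adjusted p = 0.000458). *Solyc09g065780* fell by 1.49 (SE 0.42, adjusted p = 0.0156). Of all tested genes 34.7% were called, 17.3% higher and 17.4% lower. Time in the experiment, the time of day at harvest and the mapping input, which the file headers name differently for the 5 h and 24 h libraries, cannot be told apart in these comparisons. The call for *Solyc09g065780* was lost without replicate 3 of infested 24 h (adjusted p = 0.0560).

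**Figure D2:**
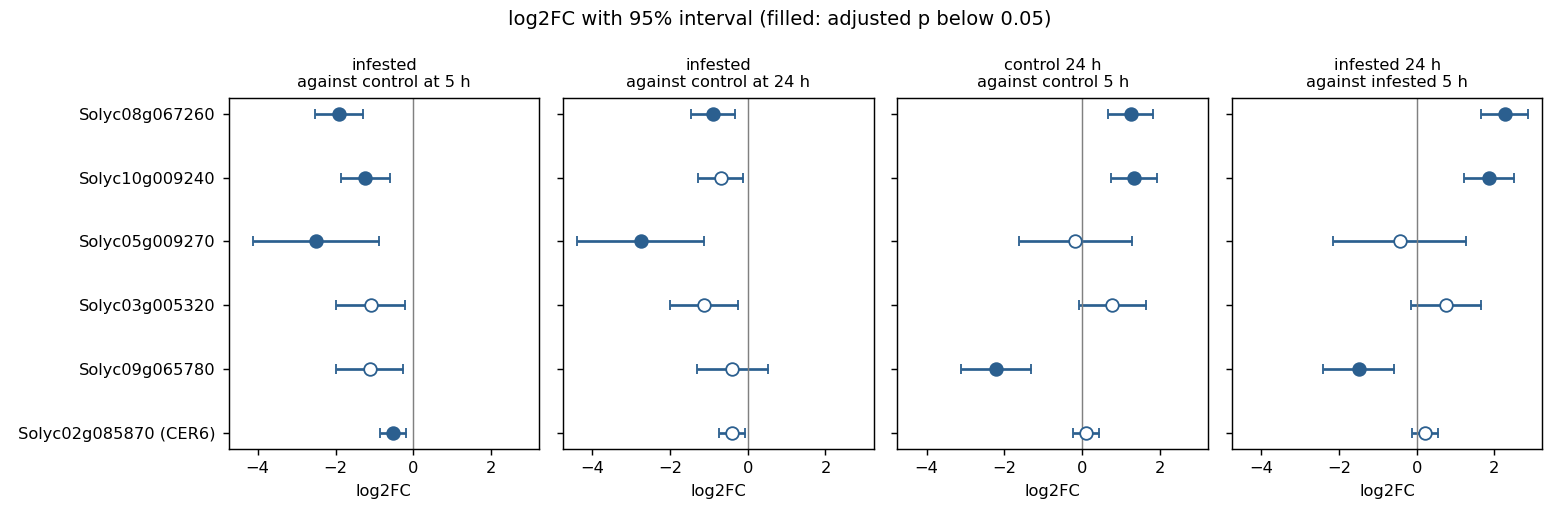
The log2FC (x axis) of each elongase gene with its 95% interval in 4 comparisons, those of infested with control leaves at each harvest and those of 24 h with 5 h within a treatment. Filled points have an adjusted p below 0.05 in edgeR's quasi-likelihood test. All estimates lie left of 0 at both times of herbivory (-0.53 to -2.49 and -0.39 to -2.76), while between harvests *Solyc08g067260* and *Solyc10g009240* lie right of 0 and *Solyc09g065780* left of it.

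The order of the 4 groups differed among the genes. *Solyc08g067260* and *Solyc10g009240* ran from control 24 h through infested 24 h and control 5 h to infested 5 h, the latter with a 5.87-fold range of means. In *Solyc08g067260* no neighbours in that order overlapped, and in *Solyc10g009240* infested 24 h and control 5 h did. *Solyc09g065780* ran from control 5 h through infested 5 h to control 24 h and infested 24 h, a 6.09-fold range in which the groups of 24 h overlapped. *Solyc05g009270* had both control groups on top and both infested groups below, with a 7.70-fold range and overlap between every pair of neighbours. For *Solyc03g005320* the order was control 24 h, control 5 h, infested 24 h and infested 5 h, with overlap between all neighbours and a 3.68-fold range. *CER6* had the same order as *Solyc03g005320*, with overlap between the 2 control groups and between the 2 infested groups, but none between control 5 h and infested 24 h.

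Since *CER6* varied least over the group means, the other 5 genes were also expressed as the log2 ratio of their count to that of *CER6* in the same library, which does not depend on library scaling. *CER6* itself was lower in infested leaves (log2FC -0.53 and -0.41), so a ratio difference is smaller in size than the gene's own log2FC. This measure was chosen after the values were seen. At 24 h the ratio of *Solyc05g009270* was -5.36, -6.26 and -3.51 in control and -6.72, -7.26 and -6.79 in infested libraries. Its infested libraries were thus all below the controls, and the difference of -1.88 had p = 0.1 in a two-sided exact permutation test, the smallest that 3 against 3 libraries allow. *Solyc10g009240* was also lower without overlap, by a smaller -0.27 (exact permutation p = 0.1). The separation was narrow, with -3.08 in its highest infested and -3.05 in its lowest control library. The ratios of *Solyc08g067260*, *Solyc03g005320* and *Solyc09g065780* overlapped at 24 h, with differences of -0.35, -0.54 and -0.08. The libraries of 5 h chose the genes, so their ratios are a description. The 5 h differences were -1.38 for *Solyc08g067260*, -2.24 for *Solyc05g009270*, -0.56 for *Solyc03g005320* and -0.57 for *Solyc09g065780*, each lower without overlap. For *Solyc10g009240* the ratios of 5 h overlapped (-0.72). Ratios to *CER6* were not computed for other genes, so no share of all genes stands beside these results. Between the control groups the ratio rose by 1.05 for *Solyc08g067260* and by 1.25 for *Solyc10g009240* and fell by 2.36 for *Solyc09g065780*, each without overlap (exact permutation p = 0.1, again the smallest possible).

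**Figure D3:**
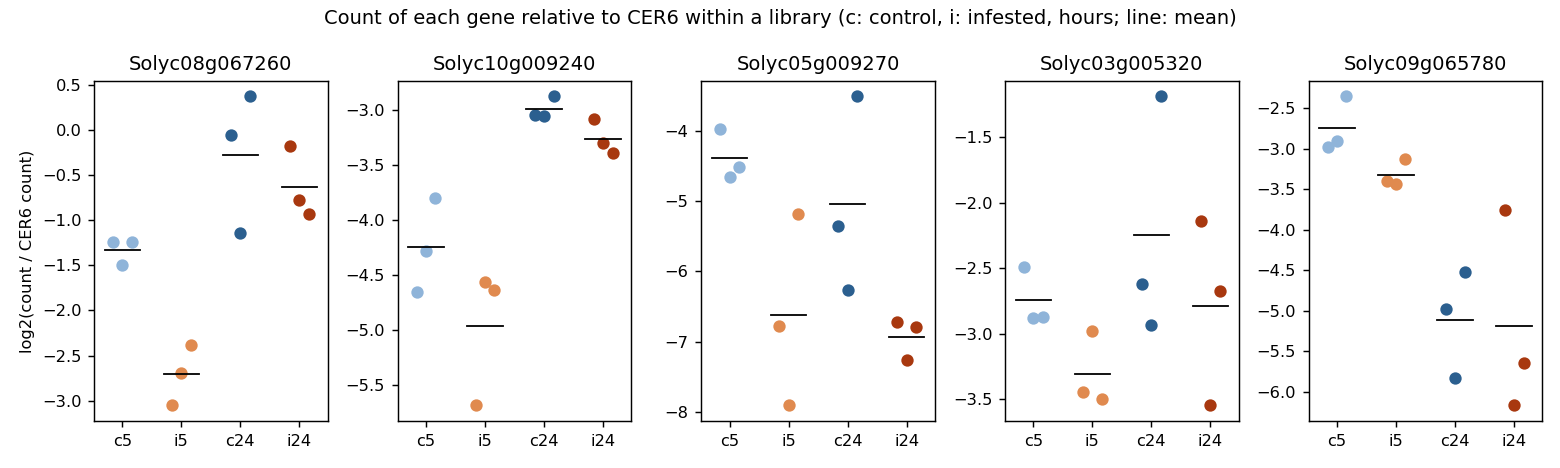
The log2 ratio of each gene's count to the count of *CER6* in the same library (y axis, a separate range in each panel), for control (c) and infested (i) leaves at 5 h and 24 h. Points are replicates 1 to 3 and lines are group means. For *Solyc05g009270* the infested libraries lay below the controls at both times, and for *Solyc08g067260* the groups of 24 h overlapped.

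Over the 12 libraries the 6 genes varied together only in part. Of the 15 pairs, 12 had a correlation of log2 CPM above 0, with a median r of 0.61. *Solyc08g067260* and *Solyc10g009240* were the most alike pair (r = 0.92), and *Solyc10g009240* and *Solyc09g065780* the least (r = -0.51). These values hold the group differences that chose the genes. As deviations from the group means, the median r was 0.15, and the pairs ranged from -0.75 for *Solyc09g065780* and *CER6* to 0.78 for *Solyc08g067260* and *Solyc05g009270*. The points share libraries and their scaling, so the correlations are a description. Among all other tested genes, *Solyc07g056270* and *Solyc01g056690* were most like the mean of the 6 standardized profiles over the 12 libraries, with r of 0.97 and 0.96. The files give no name for either. At 24 h their log2FC was -0.73 and -0.39, a description, since the profile that picked them holds these libraries.

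Genes around the elongases in cuticle formation were taken from a list of 11: *CD1*, the cutin synthase, *CD2*, *MIXTA-like* and the *SHN* genes, which encode transcription factors, *CD3*, a fatty acid hydroxylase, *GPAT6*, an acyltransferase of cutin precursors, and *CER1-1*, *CER1-2* and *CER3-like*, of alkane synthesis. Counts for 10 were analysed and 8 were tested, since *SHN1* and *SHN2* were too low, and *SHN3* was not analysed here. At 24 h 3 of the 8 were lower and none was higher, where 12.5% and 11.8% of all tested genes were, with log2FC of -1.03 for *CD3*, -1.10 for *GPAT6* and -0.73 for *CER3-like* (edgeR adjusted p = 0.000803, 0.00185 and 0.00373). All 8 estimates were below 0 and their median was -0.63, against 0.02 over all tested genes. Replicate 3 of control 24 h was the highest library of its group for each of them except *CER3-like*. *CD1* stood at 129 CPM there, against 47.3 and 23.2 CPM in replicates 1 and 2. How far the values of this list depend on that library was not tested. The list was drawn up with the 5 h results known, so its 5 h values are a description and nothing is read from their count. At 5 h 4 of the 8 were lower, against 5.59% of all tested genes (*CD2*, *CD3*, *GPAT6* and *CER3-like*, log2FC -0.80, -0.70, -0.89 and -0.62). *CER1-1* and *CER1-2* had estimates of -0.03 and 0.00 that did not pass the test.

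Part of that list also differed between the control groups of the harvests. In control leaves 5 of the 8 were higher at 24 h than at 5 h, against 13.7% of all tested genes, *CER1-2* by 1.96, *CER1-1* by 1.32, *CER3-like* by 1.18, *CD3* by 1.09 and *GPAT6* by 0.87 on the log2 scale. *Solyc08g067260* and *Solyc10g009240* moved in the same direction in these libraries, whereas *Solyc09g065780* was lower (log2FC -2.22). Of the cuticle list, *CD2* (-0.46) and *MIXTA-like* (-0.13) had estimates below 0 that did not pass the test. *CER6*, whose product is placed before alkane synthesis in wax formation, did not pass the test there. A dehydratase of the elongation cycle (*Solyc11g073130*) and a fatty acyl-CoA reductase of primary alcohol synthesis (*Solyc06g074390*) were picked from the study's genes reduced at 5 h. At 24 h both were lower, with log2FC of -0.46 and -1.44 (edgeR adjusted p = 0.0243 and 0.0443). For the reductase the groups overlapped, with replicate 2 at 2.69 CPM in infested and 2.37 CPM in control leaves. Replicate 3 of control 24 h was again its highest control, at 8.43 CPM.

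**Figure D4:**
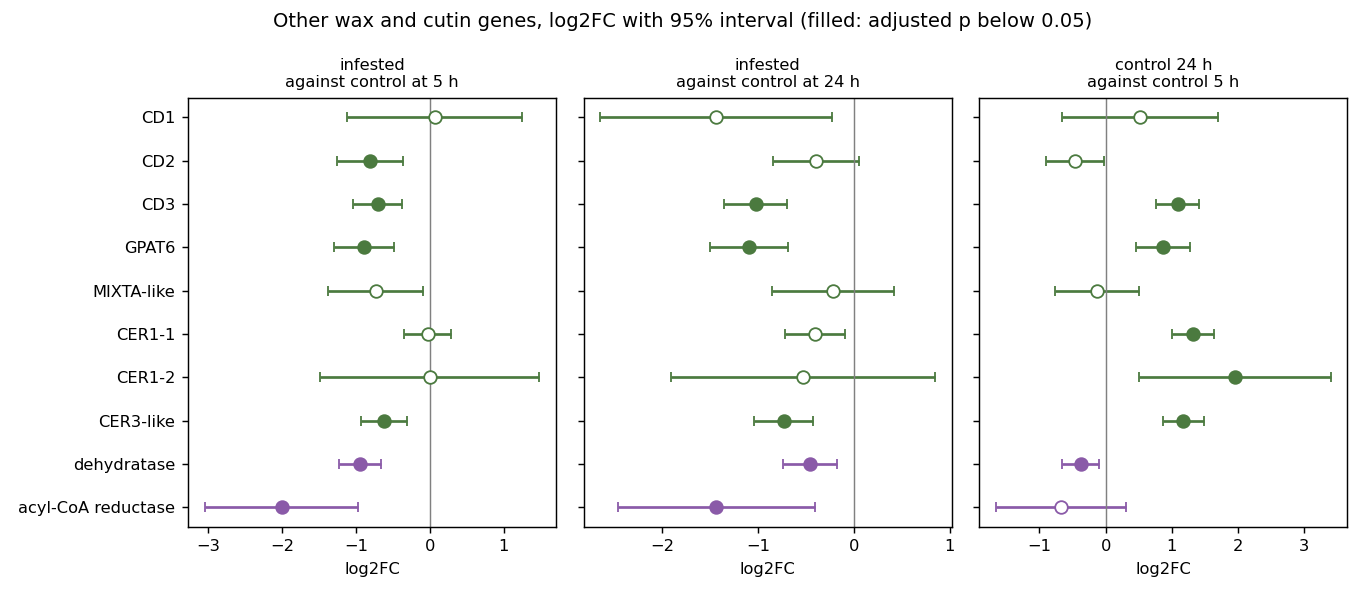
The log2FC (x axis, with 95% interval) of the 8 tested cuticle genes in green and of the dehydratase and acyl-CoA reductase in purple, for infested against control leaves at each harvest and for control 24 h against control 5 h. Filled points have an adjusted p below 0.05. *CD3*, *GPAT6* and *CER3-like* are lower in infested leaves at both times and higher in the 24 h controls than in the 5 h controls.

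Markers of other leaf cells moved as well. The 4 mesophyll genes (3 Rubisco small subunits and Rubisco activase) summed to 77527 to 85155 CPM in control 5 h, 68115 to 79726 CPM in infested 5 h, 66512 to 78314 CPM in control 24 h and 28454 to 41644 CPM in infested 24 h. None was called at 5 h, where 5.59% of all tested genes were lower, and all 4 were lower at 24 h, where 12.5% were, with log2FC between -0.96 and -1.04. Of 8 listed genes of glandular trichomes and epidermis, 7 were analysed and 3 tested, and *Hair* had no count in any library. Their sum was 33.7 to 40.3, 98.5 to 137, 23.4 to 29.9 and 36.5 to 65.4 CPM in the same order of groups. *MYC1* was the largest part of it except in replicate 3 of control 24 h, where *MYC1* stood at 13.1 and *Woolly* at 13.7 CPM. *MYC1*, a regulator of type VI trichomes, was higher at both times (log2FC 2.08 and 1.73), whereas *Woolly*, a regulator of trichome formation, was lower at 24 h (interval of 32.4% to 77.3% of the control level, edgeR adjusted p = 0.0260). *CycB2*, a cyclin of trichome formation, had log2FC of -0.31 and -1.13 that did not pass the test. The part of these cell types in the levels of the elongase genes was not tested.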

How the data were processed

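Leaflets of infested and mock-treated tomato plants were profiled by RNA-seq in 12 libraries. The authors used Trimmomatic for trimming, BWA-MEM for mapping and featureCounts for counting. Their deposited tables hold raw whole-number counts per gene. The study names the annotation ITAG2.4. No source used here gives the strand setting or the handling of multi-mapping reads, so reads of near-identical elongase copies may be shared. The labels name true leaf 3 and the study's methods true leaf 4.

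The software was edgeR 4.0.16, DESeq2 1.42.0 and limma 3.58.1, run under R 4.3.3. A gene was kept if 3 or more libraries exceeded 1 CPM, libraries were TMM-scaled, and all 12 were fitted with 1 mean per group. The quasi-likelihood F test was used, with Benjamini-Hochberg adjustment over the 18200 genes tested and a threshold of 0.05. The SE is the log2FC divided by the square root of F. The fit was tested on simulated data. Correlations used log2 CPM with a prior count of 2, and count ratios a pseudocount of 0.5.

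The members, lists and tests were chosen with earlier results of these data known. Named genes were the 6 members, the whole cuticle list, a dehydratase and a reductase, the 2 tested genes most like the members' mean profile, and the marker lists. Alternatives were DESeq2 size factors, library totals only, no filter, edgeR's likelihood ratio test, filterByExpr, the Wald test of DESeq2, an absolute log2FC above 1.5, a stricter threshold of 0.01, fits of only the 6 libraries compared, the replicate number as a block, a prior count of 2 and leaving out each library. The reference table matched 0 gene identifiers, and sequences of the genes were not used here.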

Additional observations from a re-analysis of the deposited data

How the results depend on the processing

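The count of elongase genes called at 5 h was 4, where 1017 of all 18200 tested genes were called lower. It was 2 with an absolute log2FC above 1.5 (172 of all genes lower) and 1 with an adjusted p below 0.01 (386). The likelihood ratio test gave 5 (1248) and DESeq2's Wald test 6 (1352). With only the 6 libraries compared it was 6 (1475 of 17044 genes). It was 3 with library totals only (847), with no filter (869 of 25878) and with filterByExpr (986 of 20315). In these 3 settings the call for *CER6* was lost. At 24 h it was 2, where 2279 of all tested genes were called lower. It was 1 with library totals only (1303 of all genes lower) and 4 with DESeq2's Wald test (2610). An absolute log2FC above 1.5 gave 1 (158) and an adjusted p below 0.01 gave 0 (1162). With only the 6 libraries compared it was 0 (1127 of 17511 genes). In controls between harvests it was 3, where 2552 of all tested genes were called lower and 2485 higher. With an absolute log2FC above 1.5 it was 1 (626 of all genes lower and 682 higher). In infested leaves it was 3, where 3165 of all tested genes were called lower and 3149 higher. With library totals only it was 5 (1628 of all genes lower and 5493 higher). That setting moved the median log2FC of all genes there from -0.02 to 0.29. Leaving out 1 library gave 1 to 4 calls at 5 h (443 to 1188 of all genes lower) and 0 to 3 at 24 h (1399 to 2207 lower). It gave 0 to 0 for the difference of responses. Between harvests it gave 3 to 3 in controls (1785 to 2671 of all genes lower, 1785 to 2856 higher). In infested leaves it gave 2 to 4 (2495 to 3270 lower, 2333 to 3263 higher). The median correlation was 0.61, and 0.15 on deviations from the group means.

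With the replicate number as a block the counts were 3, 3, 0, 3 and 3 in the same order of comparisons. Of all tested genes 879, 2122, 164, 2384 and 2988 were called lower there, and 1130, 1859, 52, 2232 and 2895 higher. Same-numbered libraries did not deviate together, with r above 0.1 in 2 of 12 pairs. When each library was compared with those of another group, it correlated best with its own number in 4 of 24 comparisons. The number was therefore not taken as a pairing. The block turned the difference of responses to 0.38 for *Solyc05g009270* and to 0.0041 for *Solyc03g005320*.

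Changes of sign occurred only in estimates that were not called. The difference of responses of *Solyc03g005320* turned to 0.17 with library totals only and ranged from -0.29 to 0.70 with 1 library left out. That of *Solyc05g009270* ranged from -0.73 to 0.90 and that of *CER6* from -0.024 to 0.31. Between harvests, *Solyc05g009270* ranged from -1.34 to 0.23 in controls and from -0.90 to 0.51 in infested leaves. All log2FC of infested against control stayed below 0 under every alternative. Where a setting changed a result, the cause was not tested.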
